A study of Homo sapiens with 132 samples.

Results

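The early response of MKN7 cells to afatinib given on top of trastuzumab was examined in 6 RNA sequencing libraries. They were chosen by their labels: 3 replicates of trastuzumab + afatinib (Tra+Afa) and 3 replicates of trastuzumab alone (Tra), all at 4 h, out of 132 libraries of 4 gastric cancer cell lines and 44 conditions. MKN7 is an established gastric cancer cell line grown in RPMI medium with fetal calf serum. Trastuzumab (5 µg/ml) is an antibody against the extracellular part of the receptor HER2 (gene ERBB2), and both groups received it. Afatinib (0.5 µM) is a small molecule that binds the kinase domains of EGFR, HER2 and HER4 covalently. Afatinib was dissolved in DMSO, and no group with DMSO alone was among the count files, so the solvent and the drug cannot be told apart. Untreated MKN7 cells and cells treated with afatinib alone (Afa), 3 libraries each at 4 h, gave the same addition of afatinib without trastuzumab. The question was which genes responded within 4 h, and whether the response differed without trastuzumab, at 24 h or in the other lines.

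EGFR, HER2, HER3 and HER4 are receptor tyrosine kinases of the ERBB family. Ligand binding or high receptor levels lead to dimers that signal through RAS, RAF, MEK and ERK (the MAPK pathway) and through PI3K and AKT. Active ERK raises the transcription of immediate early genes and of its own inhibitors within minutes to hours, whereas AKT holds FOXO transcription factors outside the nucleus.

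The 6 libraries held 46131199 to 64737674 counts each, so that 3 counts corresponded to 0.0463 to 0.0650 CPM (read counts scaled to a library of equal size). Levels are given below as CPM normalised with the TMM method, and differences as log2 fold changes (log2FC) with a standard error (SE). This SE is approximate. It was derived from the test, as the absolute log2FC divided by the square root of the F statistic. The 95% confidence intervals below were built from it. Of 65217 gene identifiers, 17378 passed the filter on low counts and were tested. All 8 epithelial markers were expressed. Scaled by library size, their summed level was 9580 to 10200 CPM in Tra and 9760 to 10000 CPM in Tra+Afa. This sum holds changes in both directions: 2 of the 8 passed an adjusted p under 0.05 as higher and 3 as lower in edgeR. EPCAM had 617 to 622 CPM in Tra and 597 to 642 CPM in Tra+Afa. KRT8 had 3280 to 3530 CPM in Tra and 2650 to 2900 CPM in Tra+Afa. ERBB2 had 3460 to 3860 CPM in Tra and 4300 to 4690 CPM in Tra+Afa. The 12 markers of fibroblasts, endothelium and blood cells summed to 11.4 to 15.5 CPM in Tra and 12.9 to 18.4 CPM in Tra+Afa, most of it from the collagen gene COL1A1. The fibroblast marker DCN had at most 2 counts and the T cell marker CD3E at most 4 in any of the 12 MKN7 libraries of 4 h. A gene whose annotated span lay wholly under other genes was rarely counted: 1507 of 1593 such protein-coding genes (94.6%) were at 0 in these 12 libraries, against 877 of 7358 (11.9%) with no gene over them. JUNB, FOSB, CDK2, BAK1 and TIMP1 lie wholly under other genes and are listed at 0, so nothing can be said about them here. Why a single gene was at 0 was not tested, and TRAF2, with 0.159% of its span under other genes, was at 0 as well.

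Adding afatinib to trastuzumab changed 618 of the 17378 genes tested (3.56%) with a log2FC beyond -1 or 1 and an adjusted p under 0.05. These genes are called regulated below. Of them, 364 (2.09%) were higher and 254 (1.46%) were lower in Tra+Afa. Without the limit on the fold change, 6407 genes (36.9%) passed, 3038 higher (17.5%) and 3369 lower (19.4%). In 610 of the 618 genes the 3 same-numbered pairs of libraries moved in the same direction. The genes were called on these same pairs, so this agreement follows largely from the selection. The values of Tra and Tra+Afa did not overlap in 571 of the 618, against 6757 of all genes tested (38.9%). Scaling by library size alone gave 693 regulated genes, 495 higher and 198 lower, so that the share of higher genes was 71.4% in place of 58.9%, and it moved the median log2FC of all genes from 0.008 to 0.101.

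Among strongly expressed genes the falls outnumbered the rises, and among weakly expressed genes the rises outnumbered the falls. Of the 9379 genes with a mean log2 CPM above 3, 42 (0.448%) were regulated higher and 111 (1.18%) lower. Of the 4234 genes at or below 0 on the same scale, 241 (5.69%) were higher and 81 (1.91%) lower. Protein-coding genes were evenly split, with 185 higher and 192 lower of 13474, whereas 75 of 1322 lincRNA genes were higher and 25 lower. The share of all counts that fell on lincRNA genes was 0.608 to 0.655% in Tra and 0.753 to 0.897% in Tra+Afa, and that on antisense genes was 0.282 to 0.296% in Tra and 0.305 to 0.346% in Tra+Afa. The part of these shares in the count of weakly expressed genes was not tested. Above a mean log2 CPM of 1, where the genes named below were taken from, 92 genes were higher and 160 lower.

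**Figure D1:**
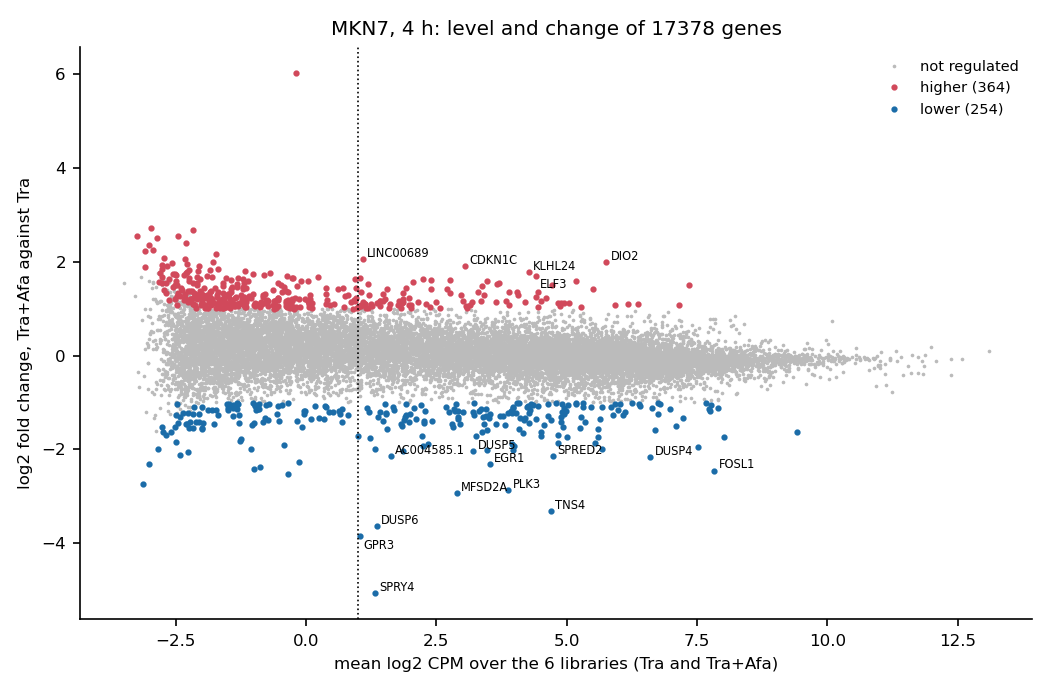
Each point is 1 of the 17378 genes, with its mean log2 CPM over the 6 libraries on the x axis and the log2FC of Tra+Afa against Tra on the y axis. Red points are the 364 genes regulated higher, blue points the 254 regulated lower, and the dotted line marks a mean log2 CPM of 1. To its right the falls reach further (SPRY4, -5.06) than the rises (LINC00689, 2.06). The red point near 6 is LINC00486, whose value rests on few libraries.

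Among the 12 largest falls were several known targets and brakes of the MAPK pathway. SPRY4 (chr5:142310427-142326455, minus strand, GRCh38), a Sprouty protein that dampens RAS and ERK signaling, had 13.5, 11.4 and 17.8 CPM in the 3 Tra libraries and 0.590, 0.358 and 0.308 CPM in Tra+Afa. Every Tra library was far above every Tra+Afa library, and the log2FC of -5.06 ± 0.21 (SE, edgeR adjusted p = 2.07e-10) was the largest fall of all genes tested. DUSP6 (chr12:89347232-89353271), a phosphatase that removes phosphate from ERK, went from 9.16, 7.16 and 10.4 CPM to 0.805, 0.590 and 0.750 CPM, a log2FC of -3.62 ± 0.14. DUSP4 and DUSP5, phosphatases of the same family that act in the nucleus, fell by 2.16 and 2.04 on the log2 scale. DUSP5 had 24.3, 15.2 and 18.7 CPM in Tra and 8.73, 2.92 and 3.42 CPM in Tra+Afa. Its replicate 1 was the highest library in both groups, but the groups did not overlap. SPRED2, which blocks the activation of RAF, had 54.5, 54.2 and 59.8 CPM in Tra and 13.6, 12.6 and 12.2 CPM in Tra+Afa (log2FC -2.13 ± 0.072). Here the spread within either group was small beside the distance between them.

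Genes outside that feedback fell as well, and GPR3, TNS4, MFSD2A and PLK3 fell further than DUSP4, DUSP5 and SPRED2. GPR3 (chr1:27392644-27395814), a receptor that raises cAMP without a known ligand, had 7.93, 6.004 and 8.68 CPM in Tra and 0.501, 0.447 and 0.616 CPM in Tra+Afa (log2FC -3.85 ± 0.13). TNS4 (chr17:40475828-40501597), a tensin of focal adhesions, had 126, 60.7 and 69.8 CPM in Tra and 11.6, 6.96 and 6.91 CPM in Tra+Afa (log2FC -3.31 ± 0.12). For TNS4, too, replicate 1 was the highest in both groups. The lincRNA gene AC004585.1 (chr17:40517026-40527002), which lies close to TNS4, fell by 2.15 on the log2 scale, from 5.26 to 7.16 CPM in Tra to 1.32 to 1.60 CPM in Tra+Afa. MFSD2A, a transporter of lipids that carry omega fatty acids, fell by 2.92, and PLK3, a kinase of the polo family, by 2.87. PLK3 had 39.2, 33.9 and 47.0 CPM in Tra and 6.21, 5.03 and 5.08 CPM in Tra+Afa, again without overlap.

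FOSL1 and EGR1 represent the transcription factors among the largest falls. FOSL1 (chr11:65892049-65900573), a FOS protein of the AP-1 complex, had 556, 463 and 587 CPM in Tra and 97.3, 84.1 and 113 CPM in Tra+Afa. Its log2FC of -2.45 ± 0.054 had the smallest adjusted p of the 24 genes named here (edgeR, 4.65e-13). EGR1 (chr5:138465490-138469315), a zinc finger protein induced within minutes of ERK activation, had 33.2, 19.7 and 27.96 CPM in Tra and 9.76, 3.76 and 3.29 CPM in Tra+Afa (log2FC -2.31 ± 0.28). The groups stayed apart, with the smallest pairwise drop in replicate 1.

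**Figure D2:**
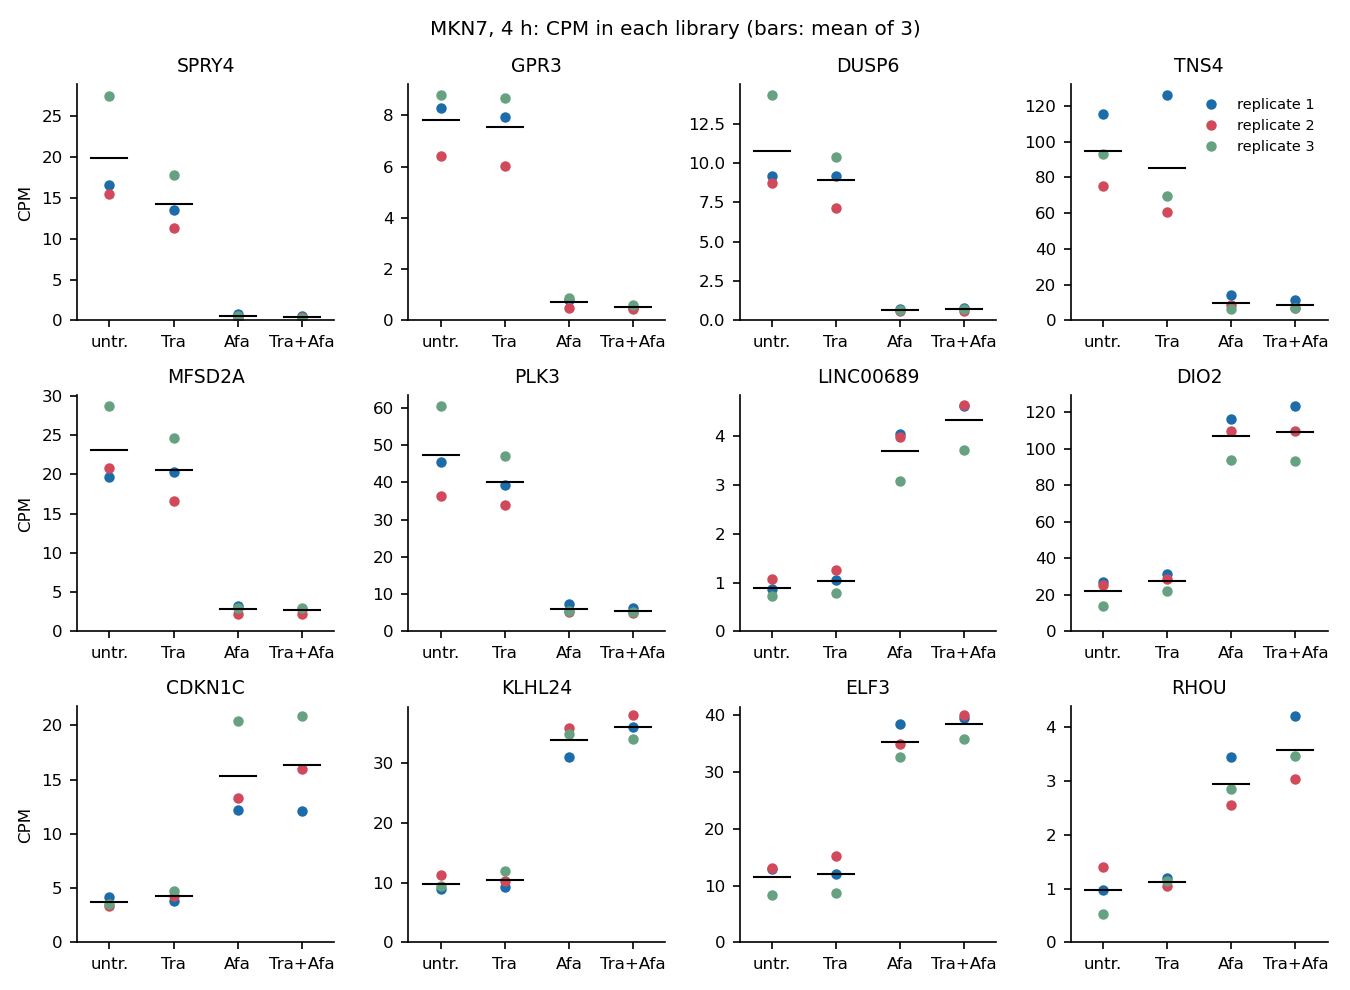
CPM of the 6 largest falls and the 6 largest rises (y axis, linear, starting at 0) in each MKN7 library at 4 h, with untreated (untr.), Tra, Afa and Tra+Afa on the x axis, colors for replicates 1 to 3 and bars for the mean of 3. In each panel the libraries with afatinib lie apart from those without it, whether or not trastuzumab was given. SPRY4, for example, lies at 11.4 to 17.8 CPM in Tra and at 0.308 to 0.590 CPM in Tra+Afa.

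The upstream sequence of EGR1, a classical immediate early gene, shows what such a start site can hold. The 250 bases before its start, chr5:138465229-138465478 (plus strand), were read from RefSeq (GRCh38.p14). Capitals mark serum response elements, the 10-base motif bound by serum response factor, a transcription factor that works with ETS proteins phosphorylated by ERK.
EGR1: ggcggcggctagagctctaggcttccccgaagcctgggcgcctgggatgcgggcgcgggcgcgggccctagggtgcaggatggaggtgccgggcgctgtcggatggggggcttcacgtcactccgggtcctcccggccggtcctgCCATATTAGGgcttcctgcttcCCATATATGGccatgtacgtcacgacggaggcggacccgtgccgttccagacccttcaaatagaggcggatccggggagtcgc
EGR1 held 2 of these elements, at 105 to 96 and at 83 to 74 bases before its start. Of the 254 genes regulated lower, 145 had a window in the RefSeq table, and 6 of these (4.14%) held a serum response element (EGR1, EGR2, BCL2, PDE4D, NR2F1 and ASB2). The share was 0 of 165 among the genes regulated higher and 165 of 11165 (1.48%) among all genes tested. A gene was counted if any of its windows held the motif. Counted by single windows, a different measure, the share was 407 of 35116 (1.16%). By gene, the AP-1 motif TGANTCA was in 13 of the 145 lower genes (8.97%), in 21 of the 165 higher genes (12.7%) and in 763 of all tested (6.83%). The ETS motif CCGGAAG was in 12 (8.28%), 3 (1.82%) and 1912 (17.1%) of them, and the E-box CACGTG in 21 (14.5%), 18 (10.9%) and 1206 (10.8%). The cAMP response element TGACGTCA was in 5 (3.45%), 3 (1.82%) and 352 (3.15%), and the forkhead motif GTAAACA in 2 (1.38%), 5 (3.03%) and 351 (3.14%). All motifs were searched on both strands of the 250 bases before the RefSeq start, which can lie inside the GENCODE span of a gene, as for SPRY4, and these shares describe letters, not binding.

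Above a mean log2 CPM of 1, the largest rises were smaller than the largest falls. CDKN1C (chr11:2883213-2885773), an inhibitor of cyclin-dependent kinases, had 3.85, 4.25 and 4.70 CPM in Tra and 12.1, 15.9 and 20.9 CPM in Tra+Afa (log2FC 1.91 ± 0.14, edgeR adjusted p = 8.00e-08). CCNG2, an unusual cyclin that slows the cell cycle and is known as a FOXO target, had 18.7, 24.1 and 19.9 CPM in Tra and 58.5, 71.3 and 58.9 CPM in Tra+Afa (log2FC 1.59 ± 0.060). PDK4, a kinase that turns off pyruvate dehydrogenase and another FOXO target, had 6.75, 6.38 and 5.84 CPM in Tra and 20.9, 18.1 and 18.6 CPM in Tra+Afa (log2FC 1.59 ± 0.12). In each of these genes every Tra+Afa library was above every Tra library.

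KLHL24, an adaptor of a ubiquitin ligase, rose by 1.79 ± 0.083 on the log2 scale, with 9.19, 10.3 and 11.9 CPM in Tra and 35.9, 37.9 and 34.0 CPM in Tra+Afa. ELF3, an ETS factor of epithelial cells, had 12, 15.2 and 8.72 CPM in Tra and 39.5, 39.9 and 35.9 CPM in Tra+Afa (1.70 ± 0.11). Other genes cover 73.6% of the ELF3 span and 92.7% of that of DIO2, so their counts may be incomplete. DIO2, a deiodinase that activates thyroid hormone, rose by 1.998 ± 0.098, from 31.6, 28.9 and 21.9 CPM to 124, 110 and 93.4 CPM. The remaining large rises were in RHOU, an atypical small GTPase (1.65 ± 0.21), ARID5B, a DNA-binding protein (1.62 ± 0.13), FAM49A (1.60 ± 0.092), ZNF608 (1.57 ± 0.10) and the lincRNA genes LINC00689 (2.06 ± 0.13) and LINC02532 (1.63 ± 0.16). ARID5B had the widest Tra+Afa group of them in relative terms, with 13.2, 10.0 and 5.62 CPM against 3.98, 2.84 and 2.42 CPM in Tra, and it did not overlap either.

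Genes were also described by lists. Counts of regulated members are to be read beside the 2.09% of all genes that were higher and the 1.46% that were lower. Counts that passed the adjusted p alone are to be read beside 17.5% higher and 19.4% lower of all genes. The median log2FC of all genes was 0.008. Lists and members were chosen with earlier results of these data known, so their counts are not independent evidence. MAPK output and feedback genes fell nearly as a whole: of 15 tested, 12 were regulated lower and 0 higher, 14 passed the adjusted p as lower and 1 as higher, and the median log2FC was -1.96. Besides the genes above they included ETV5, an ETS factor (-2.01 ± 0.085), PHLDA1 (-1.99 ± 0.072), SPRED1 (-1.93 ± 0.073), the phosphatase DUSP7 (-1.53 ± 0.071) and the receptor EPHA2 (-1.96 ± 0.11). CCND1, cyclin D1, is on this list and on that of G1 genes. It had 1265, 1058 and 1306 CPM in Tra and 349, 388 and 435 CPM in Tra+Afa (-1.63 ± 0.069). SPRY2, at -1.005 ± 0.070, lay at the limit of the call and fell short of it in 6 of 11 alternative analyses.

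Immediate early transcription factors were lower in 8 of 22 tested, and 17 of 22 passed the adjusted p as lower against 2 as higher (median -0.66). MYC had 537, 440 and 442 CPM in Tra and 150, 146 and 128 CPM in Tra+Afa (-1.74 ± 0.061). MAFF fell by 1.65, IER3 by 1.19, EGR2 by 1.25 and EGR4 by 1.79 on the log2 scale. FOS had 15.5, 5.26 and 6.01 CPM in Tra and 5.83, 2.22 and 1.85 CPM in Tra+Afa (-1.43 ± 0.16). Its groups overlapped, because replicate 1 of Tra+Afa was above replicate 2 of Tra, although each pair fell, and its call was lost in both fits with no replicate block. EGR4 overlapped as well and was lost in 1 of those fits.

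Of 8 EGFR ligands and neuregulins tested, 4 EGFR ligands were regulated lower and 0 genes higher (median -0.81), and the other 4 did not pass the adjusted p. All 4 ERBB receptors stayed within the fold limit. AREG (amphiregulin) had 47.4, 35.1 and 42.3 CPM in Tra and 13.9, 10.4 and 13.7 CPM in Tra+Afa (-1.72 ± 0.060). HBEGF had 85.8, 87.1 and 94.6 CPM in Tra and 33.5, 24.8 and 22.6 CPM in Tra+Afa (-1.73 ± 0.15). TGFA and EREG (epiregulin) fell by 1.33 and 1.26. The groups did not overlap in any of these ligands. Of the receptors, EGFR had 538, 539 and 578 CPM in Tra and 384, 422 and 400 CPM in Tra+Afa (-0.46 ± 0.076, edgeR adjusted p = 0.000228). ERBB3 had 27.4, 30.9 and 31.4 CPM in Tra and 52.3, 51.7 and 50.8 CPM in Tra+Afa (0.79 ± 0.061). Both passed the adjusted p without reaching the fold limit, EGFR as lower and ERBB3 as higher. ERBB2, the target of trastuzumab, was 0.18 ± 0.054 higher (edgeR adjusted p = 0.0139), and ERBB4 at 0.38 ± 0.15 did not pass (edgeR adjusted p = 0.0559). Among 9 inhibitors of the receptors, CBLB, a ubiquitin ligase, was the regulated member (1.25 ± 0.070).

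**Figure D3:**
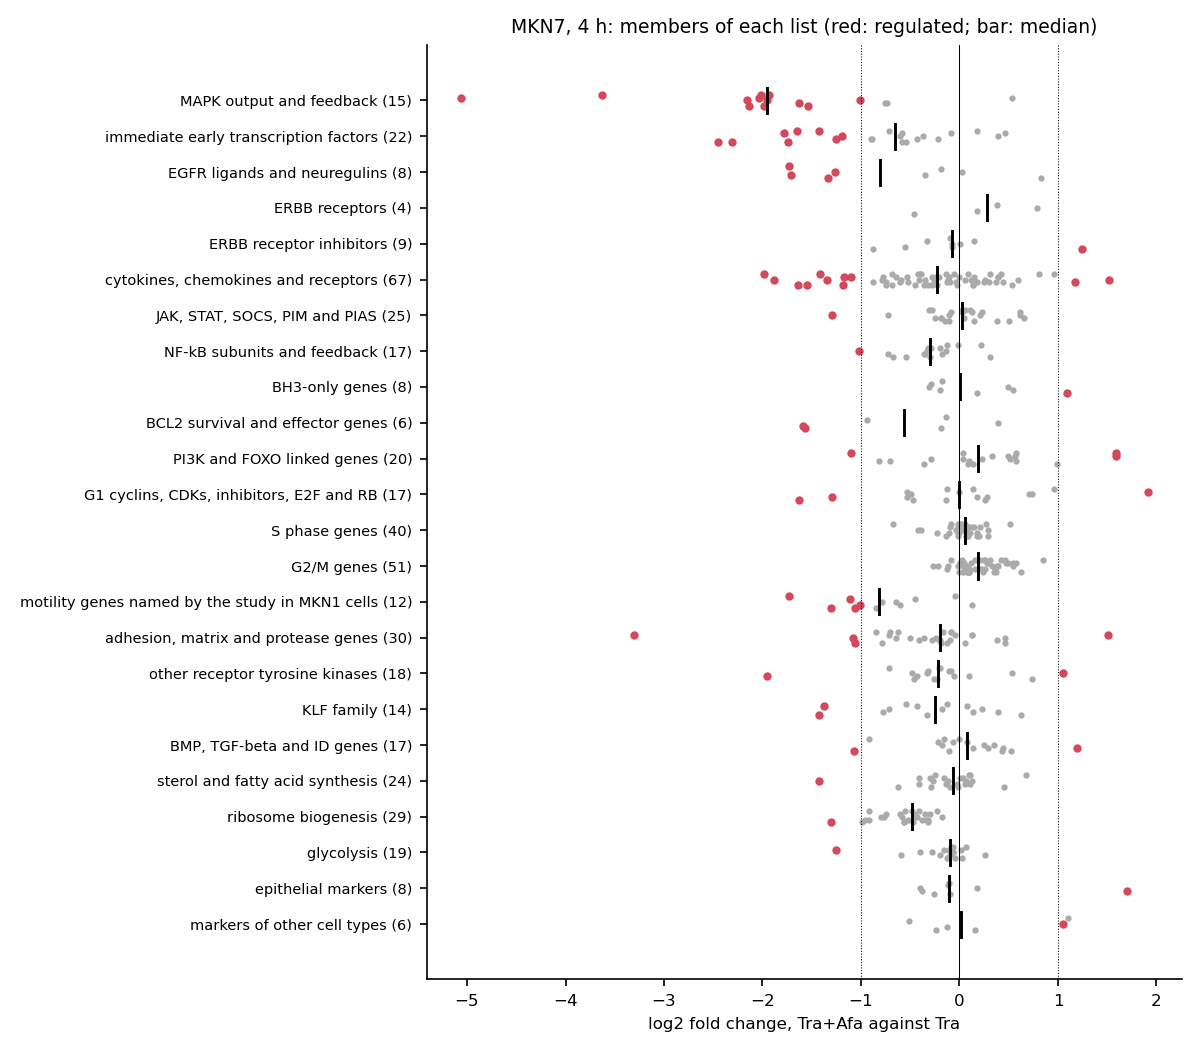
Each point is a tested member of a list (rows, with the number tested), placed by its log2FC of Tra+Afa against Tra. Red points were regulated, bars mark the median, and dotted lines the limits of -1 and 1. MAPK output and feedback genes have their median at -1.96, and ribosome biogenesis genes are all below 0 with a median of -0.48.

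Genes of survival and death were affected on both sides. BCL2L1 had 195, 171 and 177 CPM in Tra and 63.0, 54.8 and 62.2 CPM in Tra+Afa (-1.59 ± 0.051). BCL2 fell by 1.57 ± 0.11, from 5.02, 4.32 and 5.72 CPM to 1.48, 1.63 and 1.96 CPM. Both encode proteins that protect mitochondria from apoptosis, and they were the regulated genes among 6 survival and effector genes (median -0.57). Of 8 BH3-only genes, which oppose them, 3 passed the adjusted p as higher and 2 as lower (median 0.002). The regulated member, BMF, rose (1.09 ± 0.14), a call that was lost without replicate 1 (0.97). TNFRSF10A and TNFRSF10B, the death receptors of the ligand TRAIL, fell by 1.89 and 1.10. TNFRSF10D and TNFRSF10C, of the same family and added after their values were seen, were at -1.02 ± 0.077 and 0.17 ± 0.27. TRAIL itself (TNFSF10) had 0.405, 0.471 and 0.373 CPM in Tra and 1.25, 1.06 and 0.596 CPM in Tra+Afa. It rose by 1.17, a call that was lost without replicate 1 (0.96).

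Cytokines, chemokines and their receptors were regulated in 11 of 67 tested genes, 9 of them lower. The adjusted p was passed by 33 as lower and 13 as higher (median -0.23). Among the regulated members, CCL20, IL11, IL1A and TNFSF10 lost the call under at least 1 alternative analysis. LIF, a cytokine of the interleukin-6 family, had 85.6, 70.4 and 83.0 CPM in Tra and 32.7, 28.2 and 32.8 CPM in Tra+Afa (-1.35 ± 0.073), and IL24 fell by 1.64. In a fit of all 24 MKN7 libraries, the regulated members CSF2 and IL22RA1 were at -1.98 ± 0.17 and 1.52 ± 0.19 at 4 h. SOCS3, an inhibitor of JAK and STAT signaling, fell by 1.29 and was the regulated gene among 25 of that pathway. Of 17 NF-kB genes, 11 passed the adjusted p as lower and 1 as higher (median -0.30). NFKBIE, an inhibitor of NF-kB, fell by 1.02, and this call was lost when scaled by library size alone and without replicate 2.

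Genes linked to PI3K and FOXO had 2 regulated higher (CCNG2 and PDK4) and 1 lower (TRIB1, -1.10) of 20, and 9 passed the adjusted p as higher against 5 as lower (median 0.19). Among 17 genes of the G1 phase, CDKN1C was higher, and CCND1 and CDKN1A were lower. CDKN1A had 44.5, 40.4 and 55.2 CPM in Tra and 19.3, 18.0 and 19.1 CPM in Tra+Afa (-1.30 ± 0.11), so that 2 inhibitors of the same kinases moved in opposite directions. Few genes of DNA replication and mitosis were lower at 4 h. Of 40 S phase genes 0 were regulated, 8 passed the adjusted p as higher and 4 as lower in edgeR (median 0.06, range -0.68 to 0.51). Of 51 G2/M genes 0 were regulated, and 28 passed as higher and 2 as lower (median 0.19, range -0.27 to 0.85). Of all genes 17.5% passed as higher and 19.4% as lower. With library size alone, 19 of the S phase genes passed as higher and 3 as lower, and 38 and 1 of the G2/M genes.

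Ribosome biogenesis genes were lower in small steps. Of 29 tested, 28 passed the adjusted p as lower and 0 as higher, with a median of -0.48 and a range from -1.31 to -0.18. RRS1, an assembly factor of the large subunit, was the regulated member and had 65.1, 56.7 and 61.4 CPM in Tra and 26.6, 21.6 and 26.1 CPM in Tra+Afa. With library size alone, 26 of the 29 passed as lower and the median was -0.39. Among 19 glycolysis genes HK2, the hexokinase that starts the pathway, fell by 1.25 ± 0.11, with 161, 211 and 138 CPM in Tra and 72.3, 103 and 46.0 CPM in Tra+Afa.

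Among genes of the cell surface and movement, 5 of 12 motility genes that the study had named in MKN1 cells were regulated lower and 0 higher, and 10 of 12 passed the adjusted p as lower (median -0.82). That list was chosen by the study on other libraries of this series, so it is not independent evidence of the direction. Its regulated members were HBEGF, ETS1 (-1.11), PTGS2 (-1.31), ITGA2 (-1.06) and SPRY2. With library size alone 3 members were regulated. ITGA2, a collagen receptor subunit, had 318, 271 and 358 CPM in Tra and 141, 151 and 163 CPM in Tra+Afa. Of 30 adhesion, matrix and protease genes, TNS4, ITGA2 and the urokinase receptor PLAUR were lower and the integrin ITGB8 was higher (1.51 ± 0.11). ITGB8 had 24.9, 11.7 and 12.6 CPM in Tra and 57.4, 47.2 and 31.9 CPM in Tra+Afa. The calls of ITGA2 and PLAUR were lost with library size alone, and that of ITGA2 also without replicate 1.

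Few members of the remaining lists were regulated. Of 18 other receptor tyrosine kinases, EPHA2 was lower, with 408, 330 and 345 CPM in Tra and 125, 82.1 and 76.8 CPM in Tra+Afa. PDGFRB, a fibroblast marker as well, was higher at 0.841, 0.555 and 0.423 CPM against 0.383, 0.292 and 0.186 CPM, and this call was lost without replicate 1 and with no replicate block. Of 14 KLF genes, KLF16 (-1.38) and KLF2 (-1.42) fell. Of 17 genes of BMP and TGF-beta signaling, ID1, an inhibitor of differentiation, fell by 1.07, a fall that was under the limit with library size alone and without replicate 2.

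Cells that had not received trastuzumab showed many of the same changes. In 6 other libraries, Afa against untreated gave 691 regulated genes (3.98%), 367 higher (2.11%) and 324 lower (1.86%). Of the 618 genes regulated with trastuzumab, 389 were regulated in the same direction without it, which is 62.9% of the 618 and 56.3% of the 691, and 0 in the opposite direction. The log2FC without trastuzumab was -5.19 ± 0.20 for SPRY4, -4.00 ± 0.14 for DUSP6, -2.47 ± 0.054 for FOSL1, 2.31 ± 0.10 for DIO2 and 1.82 ± 0.062 for CCNG2.

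The difference between both effects of afatinib, with and without trastuzumab, was tested directly. By edgeR 0 genes were regulated (0%), with 528 at an unadjusted p below 0.05, and DESeq2 also called 0, with 232 at an unadjusted p below 0.05. The 95% confidence interval of the difference lay within -1 and 1 for 249 of the 252 regulated genes whose mean log2 CPM exceeded 1 (98.8%), and for 327 of all 618 (52.9%). Of all genes tested, 79.3% had such an interval. Among the 252 genes, 20 intervals did not include 0, against 527 of all 17378. For SPRY4 the interval ran from -0.66 to 0.93 and for FOSL1 from -0.14 to 0.17. The intervals of many weakly expressed genes reached beyond a difference of 1 on the log2 scale.

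The effect of trastuzumab itself was tested with and without afatinib. Tra against untreated gave 0 regulated genes in edgeR (0%), with 1737 at an unadjusted p below 0.05, and 0 in DESeq2, with 1251 at that limit. Tra+Afa against Afa also gave 0 (0%), with 280 in edgeR and 0 regulated and 92 at that limit in DESeq2. Without replicate 1, Tra against untreated gave 1 regulated gene in edgeR, with 3688 of 17310 at an unadjusted p below 0.05. Without replicate 2 it gave 0, with 444 at that limit, and without replicate 3 it gave 0, with 707. These comparisons share libraries with the main one.

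**Figure D4:**
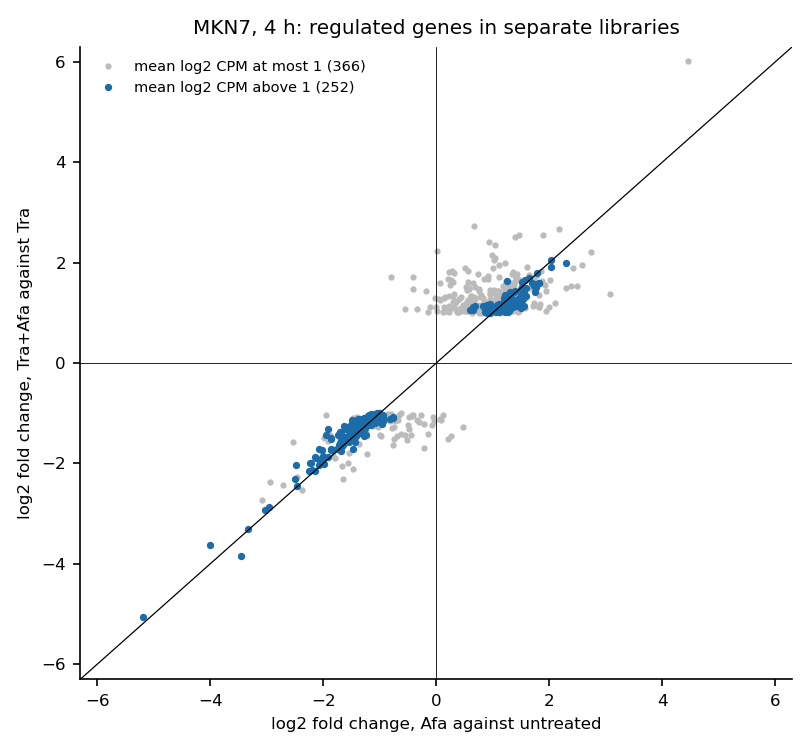
The 618 genes regulated in Tra+Afa against Tra (y axis, log2FC), with their log2FC in Afa against untreated on the x axis. The line marks equal values, blue points are the 252 genes with a mean log2 CPM above 1 and gray points the other genes. The y values were selected to lie beyond -1 or 1, and 16 of the 618 genes have the opposite sign on the x axis.

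At 24 h the same addition of afatinib gave 1950 regulated genes (10.6%), 1528 higher (8.27%) and 422 lower (2.28%), in a fit of all 24 MKN7 libraries. In that fit 683 genes were regulated at 4 h, and 321 of them were regulated in the same direction at 24 h, which is 47.0% of the 683 and 16.5% of the 1950. The difference between 24 h and 4 h passed the adjusted p in 5138 genes and exceeded 1 on the log2 scale as well in 624 (3.38%), 403 of them with a higher and 221 with a lower log2FC at 24 h. Without replicate 3 these were 228 and 231. All 12 largest falls of 4 h were regulated lower at 24 h. SPRY4 was at -4.84 ± 0.34, TNS4 at -3.96 ± 0.17 and FOSL1 at -2.24 ± 0.077. EGR1 had fallen further at 24 h (-3.83 ± 0.31, difference -1.53 ± 0.42). Of the 12 largest rises 9 were regulated higher at 24 h, and the FOXO targets PDK4 and CCNG2 had come down to 0.38 ± 0.10 and 0.54 ± 0.062 (differences -1.22 ± 0.15 and -1.06 ± 0.088).

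Genes of proliferation set the times apart. At 24 h all 40 S phase genes and all 51 G2/M genes passed the adjusted p as lower, against 28.4% of all genes, with medians of -0.70 and -0.63. The difference between 24 h and 4 h passed the adjusted p as negative in 39 of the 40 and in all 51, against 15.6% of all genes, and 1 and 11 of them differed by more than 1 on the log2 scale. At 4 h their medians had been 0.06 and 0.19. Ribosome biogenesis genes were lower at both times, with a median of -0.66 at 24 h and 29 of 29 passing as lower. MAPK output and feedback genes had a median of -1.61 at 24 h, with 13 regulated lower. In whole cultures, fewer cells in a phase of the cycle and less RNA per cell cannot be told apart.

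The largest changes of MKN7 were compared with those in the other lines. NCI-N87 and MKN1 are gastric cancer lines in which afatinib was added to trastuzumab in the same way, and so is Hs746T. All 12 largest falls of MKN7 were regulated lower at 4 h in NCI-N87, where 1.91% of all genes were, and in MKN1, where 0.562% were. In Hs746T 1 of 20641 genes was regulated at all (0.00484%) and 5 passed the adjusted p (0.0242%) in edgeR, with 1324 at an unadjusted p below 0.05. None of the 24 genes was among those 5. SPRY4 was at -4.50 ± 0.12 in NCI-N87, at -3.98 ± 0.10 in MKN1 and at 0.08 ± 0.081 in Hs746T. Of the 12 largest rises, 6 were regulated higher in NCI-N87 (CDKN1C, KLHL24, ELF3, ARID5B, PDK4 and CCNG2), against 3.53% of all genes. In MKN1 0 of the 12 were regulated, against 0.296% of all genes, and 10 passed the adjusted p of edgeR as higher, against 5.15%.

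The differences between lines were tested as contrasts of the effects. MKN7 differed from NCI-N87 in 333 genes (1.61%), from MKN1 in 237 (1.15%) and from Hs746T in 719 (3.48%). Against NCI-N87, GPR3 fell more in MKN7 (difference -1.91 ± 0.32), while DUSP6 (1.55 ± 0.27), DUSP4 (1.59 ± 0.13) and EGR1 (1.73 ± 0.35) fell less. DIO2 and FAM49A rose more in MKN7, by 2.11 ± 0.20 and 1.24 ± 0.20, and DIO2 was at -0.11 ± 0.18 in NCI-N87. Against MKN1, PLK3 (-1.71 ± 0.11) and SPRY4 (-1.06 ± 0.22) fell more in MKN7 and EGR1 (1.396 ± 0.35) fell less. CDKN1C (1.41 ± 0.13) and PDK4 (1.08 ± 0.11) rose more. These genes were chosen as the largest changes in the same MKN7 libraries, which favours larger changes in MKN7, so no count of them is given.

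**Figure D5:**
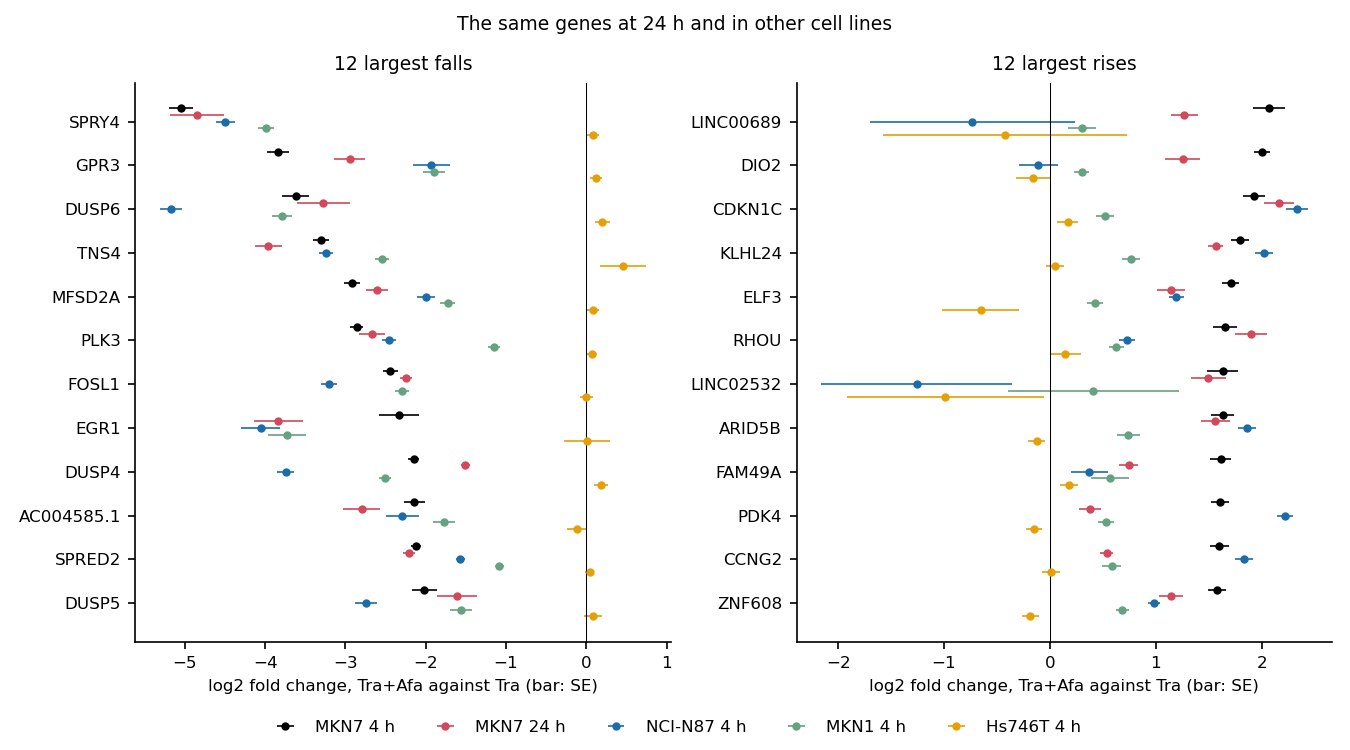
Log2FC of Tra+Afa against Tra (x axis, bars show the SE) for the 12 largest falls and the 12 largest rises of MKN7 at 4 h, in MKN7 at both times and in NCI-N87, MKN1 and Hs746T at 4 h (colors). The falls lie left of 0 in all but Hs746T, where SPRY4 is at 0.08. The wide bars of LINC00689 and LINC02532 in other lines come with SEs of up to 1.15.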

How the data were processed

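RNA of 132 cultures in biological triplicates was sequenced by the authors, who purified mRNA and made directional libraries read from both ends. The submitters' processing notes name Trim Galore, STAR and hg38. The counting tool and its annotation are not given in the sources used here. The deposited values are raw counts per Ensembl gene identifier, without normalization. Names and coordinates came from GENCODE 29 (GRCh38), which lacks 8404 of 65217 identifiers, with 0.0554% of the MKN7 counts at 4 h. The 37 mitochondrial identifiers were at 0. Replicates differed by more than counting noise, and none were duplicates.

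The 12 MKN7 libraries of 4 h (40310266 to 64737674 counts) were fitted together in R 4.3.3 with edgeR 4.0.16 (TMM, filterByExpr with a minimum count of 10 and total of 15, glmQLFit and glmQLFTest) with treatment and replicate number as terms. P-values were adjusted with Benjamini-Hochberg over all genes. Genes were called regulated at an adjusted p under 0.05 with a log2FC beyond -1 or 1. A prior count of 2 entered log2 CPM values. Same-numbered libraries deviated together (r = 0.23 to 0.484 over 18 pairs), so the numbers pair them. Differences between effects were contrasts of contrasts, over 24 MKN7 libraries for time and 24 libraries of 4 lines at 4 h for lines, with replicate number within time or line as a block. The fit was tested on simulated data.

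Genes named are the 12 largest rises and 12 largest falls of the regulated genes whose mean log2 CPM exceeded 1 and whose pairs all moved alike. The ERBB receptors, regulated members of 24 lists, and at most 3 rises and 3 falls of the other contrasts were added. The plan was to print at most 4 regulated members of each list by adjusted p. Some lists have more in print, and some regulated members are left out. A few more, chosen after their values were seen, are named as such. Members and lists were chosen with earlier results of these data known. Alternatives were DESeq2 1.42.0, other scalings, filters, sample sets and blocks, and leaving out each replicate. Python 3.11.15 with matplotlib 3.10.9 made the figures. Additional file 1 of the study was not analysed here. Some items are not reported here.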

Additional observations from a re-analysis of the deposited data

Results flagged for a closer look

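The effect of Tra+Afa against Tra differed between times or lines by a direct edgeR contrast in 624 genes for 24 h minus 4 h in MKN7 cells, 333 genes for MKN7 minus NCI-N87, 237 for MKN7 minus MKN1 and 719 for MKN7 minus Hs746T at 4 h. The genes with the largest differences among those with a mean log2 CPM above 1 in the libraries contrasted are given here as differences of log2FC.

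Between 24 h and 4 h, TGM2 (transglutaminase), COL13A1 (a membrane collagen) and DMBT1 had a lower log2FC at 24 h, with differences of -3.26 ± 0.10, -2.54 ± 0.29 and -2.29 ± 0.28. TGM2 was at -0.64 ± 0.070 at 4 h and at -3.90 ± 0.079 at 24 h. SUSD2, PSG1 and ZG16 had a higher one, with differences of 2.58 ± 0.16, 1.98 ± 0.53 and 1.82 ± 0.37.

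Between MKN7 and NCI-N87, GRAMD1B, BMF and AC241952.1 had the most negative differences, with -2.75 ± 0.29, -2.66 ± 0.19 and -2.11 ± 0.12. BMF, a BH3-only gene, rose in both lines, by 1.11 ± 0.13 in MKN7 and by 3.77 ± 0.13 in NCI-N87. The chemokine CXCL8, the WNT inhibitor DKK1 and F3 (tissue factor) had positive differences of 3.89 ± 0.16, 2.57 ± 0.078 and 2.41 ± 0.10. CXCL8 was at -0.78 ± 0.084 in MKN7 and at -4.67 ± 0.13 in NCI-N87, whereas DKK1 was higher with afatinib in MKN7 (0.70 ± 0.053) and lower in NCI-N87 (-1.86 ± 0.057).

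Between MKN7 and MKN1, GPR3 (-1.94 ± 0.21), AC241952.1 (-1.94 ± 0.15) and PLK3 (-1.71 ± 0.11) fell more in MKN7, and AC241952.1 was at 0.23 ± 0.12 in MKN1. The kinase SGK1 (2.09 ± 0.079), ITGB8 (1.87 ± 0.13) and the phosphatase DUSP10 (1.85 ± 0.10) had positive differences. DUSP10 was higher with afatinib in MKN7 (0.54 ± 0.068) and lower in MKN1 (-1.31 ± 0.075).

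Between MKN7 and Hs746T, the most negative differences were those of SPRY4 (-5.13 ± 0.18), GPR3 (-3.96 ± 0.17) and DUSP6 (-3.82 ± 0.19). The most positive were those of ELF3 (2.36 ± 0.38), the HER2 adaptor GRB7 (2.17 ± 0.21) and DIO2 (2.16 ± 0.18). GRB7 was at 0.78 ± 0.091 in MKN7, under the fold limit, and at -1.39 ± 0.19 in Hs746T, where it was the 1 regulated gene.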

How the results depend on the processing

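The count of regulated genes for Tra+Afa against Tra was 618 and lay between 498 (DESeq2) and 693 (library size alone) under 7 other settings. It was 385 with at least 10 counts in every library and 6407 with no fold limit. With no replicate block it was 512. Leaving out 1 replicate gave 496 to 625. For Afa against untreated the count of 691 became 444 with at least 10 counts and 6513 with no fold limit, and 548 to 765 without 1 replicate. With no filter the difference between both effects of afatinib gave 2 genes, Tra against untreated 15 and Tra+Afa against Afa 1. Without 1 replicate Tra against untreated gave 0 to 1. With no replicate block the counts of the differences fell to 354 for time, 92 for NCI-N87, 63 for MKN1 and 271 for Hs746T. At least 10 counts in every library gave 164, 109 and 340 for the 3 lines, where fewer genes were tested. Without 1 replicate the ranges were 459 to 565 for time, 247 to 268, 189 to 214 and 442 to 669 for the lines, the 442 without replicate 1. The causes were not tested.

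Of 77 named genes, 64 kept direction and call under all 11 alternatives, the 24 largest changes among them. The other 13 lost the call under at least 1, 26 values in all: BMF, CCL20, EGR4, FOS, ID1, IL11, IL1A, ITGA2, NFKBIE, PDGFRB, PLAUR, SPRY2 and TNFSF10. No direction was reversed. The counts of list members under these alternatives were added after the data were seen. Genes under 3 counts in a library, and those lying under other genes, were beyond what these counts could show.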

Other observations

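The genes in this section were chosen after their values were seen, and those with values beyond 1 passed the criteria for regulated genes in edgeR. CD274, the ligand of the checkpoint receptor PD-1, had 49.3, 44.4 and 49.3 CPM in Tra and 19.6, 21.4 and 19.7 CPM in Tra+Afa (log2FC -1.24 ± 0.076). The groups were far apart, and Afa at 19.2 to 22.5 CPM resembled Tra+Afa. FBXO32, a ubiquitin ligase subunit known as a FOXO target, had 82.3, 118 and 91.4 CPM in Tra and 244, 301 and 275 CPM in Tra+Afa (1.502 ± 0.072). HBP1, a repressor of cell cycle genes, rose by 1.23 ± 0.072, and ESR1, the estrogen receptor alpha, by 1.32 ± 0.12. ESR1 had 2.70, 2.35 and 1.84 CPM in Tra and 5.51, 6.71 and 4.98 CPM in Tra+Afa, without overlap.

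All 4 YPEL genes tested passed the adjusted p as higher, against 17.5% of all genes, and 3 were regulated higher, against 2.09%. Other families were counted in the same way, also after their values were seen. Of these, 3 of 4 TNFRSF10, 2 of 5 CDC42EP and 2 of 3 PHLDA genes were regulated lower, against 1.46% of all genes, and 0 higher. YPEL1 rose by 1.41 ± 0.10, YPEL3 by 1.35 ± 0.085 and YPEL2 by 1.002 ± 0.11, and YPEL5, at 0.54 ± 0.057, passed the adjusted p without the fold limit. YPEL3, which is known to slow proliferation, had 5.88, 6.51 and 5.95 CPM in Tra and 16.5, 15.9 and 14.4 CPM in Tra+Afa.

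Of 29 host genes of miRNAs tested, 2 were regulated higher and 3 lower, where 2.09% and 1.46% of all genes were. The adjusted p was passed by 7 as higher and 5 as lower, with a median log2FC of 0.045. The higher ones were weakly expressed: MIR205HG (1.04 ± 0.37) and MIR4500HG (1.23 ± 0.37) had means of 0.415 and 0.246 CPM in Tra+Afa. The lower ones were MIR17HG (-1.58 ± 0.090), MIR222HG (-1.34 ± 0.070) and MIR31HG (-1.11 ± 0.14). MIR17HG had 21.0, 19.1 and 17.7 CPM in Tra and 5.99, 7.12 and 6.17 CPM in Tra+Afa. These values are of the host transcripts, and mature miRNAs were not measured.

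BTBD19, a neighbour of PLK3 on chromosome 1, fell by 2.03 ± 0.25 together with it. LINC00486 had the largest fitted rise of all genes (6.02 ± 1.399) and passed the test. Its values were 0.180, 0.227 and 0.186 CPM in Tra and 0.161, 4.12 and 40.9 CPM in Tra+Afa, and Afa alone had 0.214, 9.27 and 0.167 CPM. The rise is thus that of 2 of 3 libraries, and the groups overlapped. High values also occurred without afatinib: at 24 h LINC00486 had 0.126, 3.06 and 51.6 CPM in Tra and 0.221, 0.222 and 46.0 CPM in Tra+Afa.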
